A study of Homo sapiens with 6 samples.

Results

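The APOBEC3 cytidine deaminases are 7 neighbouring genes on human chromosome 22, from APOBEC3A to APOBEC3H, and all 7 were found by symbol among the 26485 rows of a table of read counts. Of these, 5 had enough reads to be tested (APOBEC3B, APOBEC3C, APOBEC3D, APOBEC3F and APOBEC3G), while APOBEC3A and APOBEC3H were near the limit of detection. The table covers 6 RNA sequencing libraries of the OCI-LY8 line, which derives from a human lymphoma of germinal centre B cells and was grown in serum-containing medium. Control cells carried a non-targeting guide (sgNTC1, genotype WT, 3 libraries) and knockout cells a guide against SETD1B (sgSETD1BKO, 3 libraries). SETD1B encodes a histone H3 lysine 4 methyltransferase. The series' design text places the experiment on a KMT2D mutant background but names the line OCI-LY19, and the sample labels, which all give OCI-LY8, were followed here. Each group carries a single guide name and the labels do not state whether its libraries are separate cultures or clones, so p-values measure the spread between these libraries, which may be technical, and a guide or clone difference cannot be told apart from SETD1B loss.

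APOBEC3 enzymes remove the amino group from cytosine in single-stranded DNA and leave uracil. They are known as innate defences against retroviruses and retrotransposons, and off-target activity of some members, above all APOBEC3A and APOBEC3B, is a known source of mutations in tumours. Each deaminase domain holds a zinc site built from a histidine, a glutamate and a pair of cysteines. Some members have a single domain and others a pair, of which the second carries the catalytic activity in APOBEC3B, APOBEC3F and APOBEC3G.

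The zinc sites are printed because they show how closely the members resemble each other, which bears on how reads can be divided between them. The sequences are coding DNA of GENCODE 29 transcripts (hg38, plus strand), 5′ to 3′, each lying within 1 exon; capitals mark the codons of the histidine, the glutamate, the proline and first cysteine, and the last cysteine. A search in frame for the zinc-coordinating signature of cytidine deaminases found 1 site in APOBEC3A, APOBEC3C and APOBEC3H and 2 sites in APOBEC3B, APOBEC3D, APOBEC3F and APOBEC3G. Those of APOBEC3F and APOBEC3G, the members whose level changed, are given, together with the sites of APOBEC3B and APOBEC3D that match those of APOBEC3F.
APOBEC3F site 1 (chr22:39044962-39045066, exon 3): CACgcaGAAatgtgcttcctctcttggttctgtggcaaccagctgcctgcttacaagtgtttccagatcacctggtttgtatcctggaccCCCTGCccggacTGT
APOBEC3B site 1 (chr22:38985833-38985937, exon 3): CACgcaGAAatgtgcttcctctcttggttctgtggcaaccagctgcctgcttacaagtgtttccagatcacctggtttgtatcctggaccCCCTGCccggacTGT
APOBEC3F site 2 (chr22:39052095-39052199, exon 6): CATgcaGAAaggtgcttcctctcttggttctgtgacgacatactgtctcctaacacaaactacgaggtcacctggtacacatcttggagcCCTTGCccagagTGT
APOBEC3D site 2 (chr22:39031715-39031819, exon 6): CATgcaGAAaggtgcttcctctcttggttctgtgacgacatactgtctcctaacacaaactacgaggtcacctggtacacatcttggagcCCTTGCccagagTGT
APOBEC3G site 1 (chr22:39080954-39081061, exon 3): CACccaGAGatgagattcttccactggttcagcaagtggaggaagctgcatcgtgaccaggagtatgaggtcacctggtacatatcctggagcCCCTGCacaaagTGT
APOBEC3G site 2 (chr22:39086312-39086416, exon 6): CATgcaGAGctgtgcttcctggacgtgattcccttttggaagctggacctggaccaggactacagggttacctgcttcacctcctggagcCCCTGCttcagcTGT

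The first site of APOBEC3F and the first site of APOBEC3B differed at 0 of 105 bases, and so did the second sites of APOBEC3F and APOBEC3D. The site of APOBEC3A and the second site of APOBEC3B differed at 0 of 111 bases. Over the aligned coding sequence APOBEC3F was 89.9% identical to APOBEC3D and 70.3% identical to APOBEC3G. Of all 50-base words in the longest coding transcript, 39.6% in APOBEC3B, 24.0% in APOBEC3F, 22.1% in APOBEC3A, 19.1% in APOBEC3G, 15.2% in APOBEC3D, 1.16% in APOBEC3C and 0% in APOBEC3H also occurred in another member. With 100-base words the shares were 13.5% for APOBEC3F and 11.3% for APOBEC3G. The gene that held most of the shared 50-base words of APOBEC3F was APOBEC3G, with 11.4% of all its words. For APOBEC3G it was APOBEC3F, with 16.9%. These members were not fitted as 1 row, and the part of shared reads in their levels was not tested. How reads that align to more than 1 place were counted, and how long they were, is not stated in the labels, so the division of reads among APOBEC3A and APOBEC3B, and among APOBEC3B, APOBEC3D, APOBEC3F and APOBEC3G, is uncertain to that extent. GENCODE 29 also holds a gene model, AL022318.4, that contains 83.6% of the 50-base words of APOBEC3D and has no row in the table.

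Total counts per library lay between 28726108 and 34453249. Levels are given as CPM, reads scaled to a common library size. A gene with 0 reads could have had up to 3, or 0.087 to 0.104 CPM, and this bound, like the binomial intervals, covers counting error only. Across the transcriptome 12907 genes were tested and 1941 (15%) passed an edgeR adjusted p of 0.05, 737 higher and 1204 lower in the knockouts (2322 and 2516 after a correction for GC content). The targeted SETD1B transcript stood at 59.8, 54.8 and 53.8 CPM in the controls and at 87.4, 90.2 and 55.1 CPM in the knockouts (log2 0.47, SE 0.18, edgeR adjusted p = 0.14). It was thus not lower in the libraries labelled knockout; a guide need not lower the RNA of its target, so these levels do not check the labels. Knockout replicate 3 stood apart on the second principal component (-30.1, against 14.96 and 20.76 for the other knockout libraries), and counts are therefore also given without it. That fit called 5795 of 13063 genes (44.4%), 2817 higher (21.6%) and 2978 lower (22.8%), so its counts are read against these shares. All 8 B-cell markers, among them PAX5 and MS4A1, were tested, and their summed level was 2329 to 2363 CPM in the controls and 2375 to 3031 CPM in the knockouts.

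APOBEC3F and APOBEC3G were higher in the SETD1B knockout libraries, by 1.40-fold and 1.36-fold, while APOBEC3B, APOBEC3C and APOBEC3D did not pass the test. Thus 2 of the 5 tested members rose, where 5.71% of all tested genes rose and 15% were called in either direction. In edgeR 0 members fell, and the count was also 2 higher and 0 lower at an unadjusted p under 0.05 and with DESeq2. Over all genes the unadjusted p called 12.7% higher and 17% lower, and DESeq2 5.24% and 7.62%. The count of 2 higher and 0 lower was again obtained without knockout replicate 3, where 21.6% of all genes rose. Beyond the rises, the direction of the other 3 members was downward and small, with log2 fold changes from -0.15 to -0.03, against a median of -0.01 over all tested genes.

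APOBEC3G, a 2-domain enzyme best known for blocking HIV-1 that lacks the viral protein Vif, spans 39077005 to 39087743 on chromosome 22. It stood at 17.7, 18.2 and 18.2 CPM in control replicates 1, 2 and 3 and at 24.1, 24.7 and 24.6 CPM in knockout replicates 1, 2 and 3. The groups did not overlap, as for 37.7% of all tested genes and 16.5% in this direction, and replicates within a group differed by less than 1 CPM. The means were 18.0 ± 0.280 and 24.5 ± 0.326 CPM (SD, n = 3 each), a log2 fold change of 0.44 (SE 0.06, 95% interval 0.29 to 0.59, edgeR adjusted p = 0.0043). These values rest on 1694 reads in the controls and 2234 in the knockouts. By p-value APOBEC3G was at rank 500 of the 12907 tested genes, and 47.6% of the genes called higher had a larger log2 fold change.

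APOBEC3F, the neighbour of APOBEC3G on the centromeric side and another restriction factor of HIV-1 lacking Vif, spans 39040604 to 39053910. Its levels were 8.35, 7.74 and 8.18 CPM in the controls and 11.8, 10.8 and 11.4 CPM in the knockouts. Again every knockout library lay above every control library. The means were 8.09 ± 0.317 and 11.3 ± 0.469 CPM (SD, n = 3 each), with a log2 fold change of 0.49 (SE 0.09, 95% interval 0.28 to 0.69, edgeR adjusted p = 0.011) on 762 and 1037 reads. The call ended without control replicate 2 (log2 0.46, edgeR adjusted p = 0.069) and without control replicate 3 (log2 0.49, edgeR adjusted p = 0.060), and it held narrowly without control replicate 1 (log2 0.51, edgeR adjusted p = 0.0499). In those 3 fits the whole table gave 779, 826 and 841 calls in place of 1941. The paired count of APOBEC3D and APOBEC3F, fitted as 1 row because of their likeness, was higher by a log2 of 0.25 and missed the threshold (edgeR adjusted p = 0.063), with 15.3 ± 0.498 against 18.2 ± 0.540 CPM and groups that did not overlap.

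**Figure D1:**
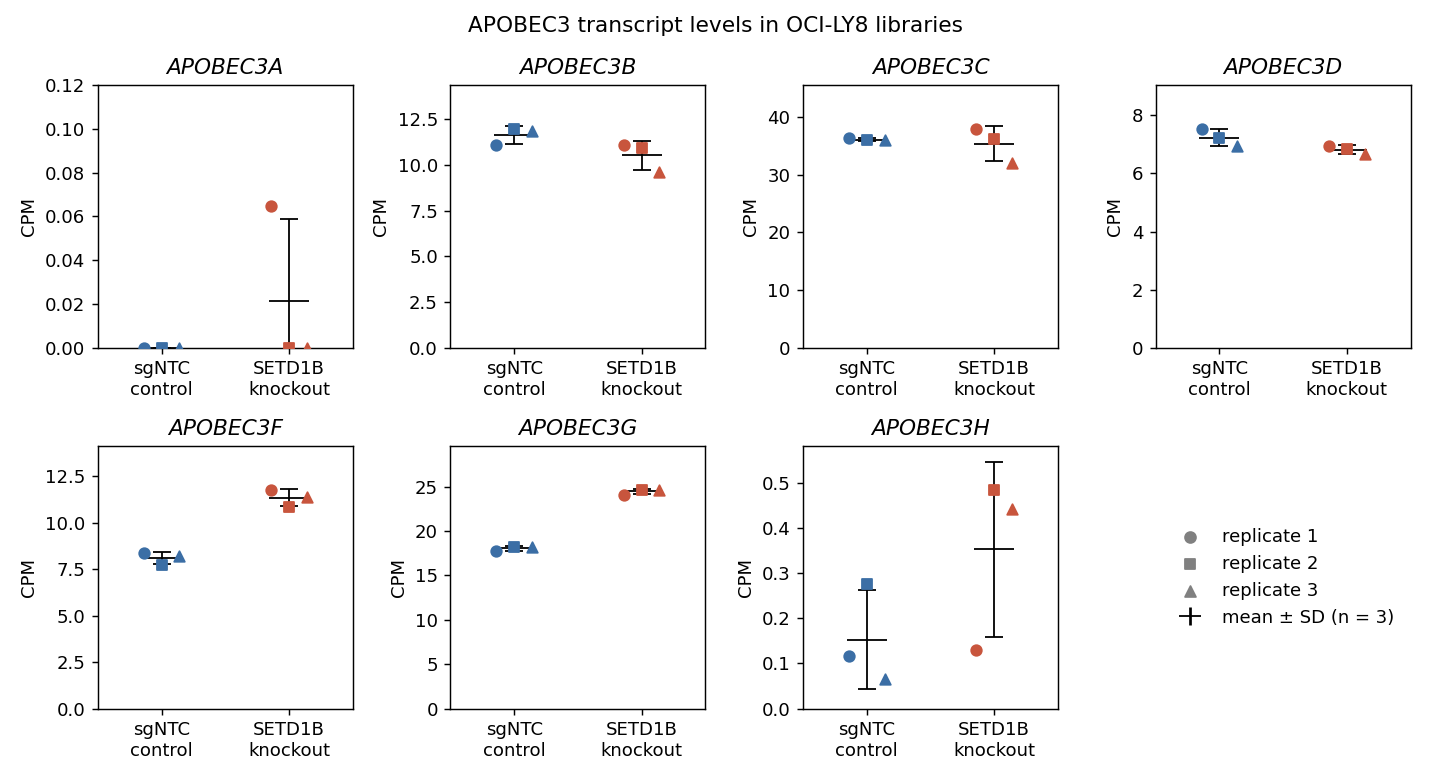
Level of each APOBEC3 member in CPM (y axis, from 0, a separate scale for each gene) in the sgNTC control and SETD1B knockout libraries; symbols are replicates 1 to 3 and bars the mean ± SD (n = 3). APOBEC3F and APOBEC3G are higher in all 3 knockout libraries, APOBEC3C and APOBEC3D overlap, and APOBEC3A and APOBEC3H lie below 0.5 CPM.

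APOBEC3C, a single-domain enzyme found in many tissues, gave the most reads of the family. It stood at 36.3, 36.0 and 36.0 CPM in the controls and at 38.0, 36.2 and 32.1 CPM in the knockouts. The groups overlapped, and the knockout spread came from replicate 3, which was the lowest of the 6. The log2 fold change was -0.03 (SE 0.08, 95% interval -0.20 to 0.15, edgeR adjusted p = 0.86), and it turned to 0.04 without knockout replicate 3 (edgeR adjusted p = 0.54). The interval leaves out a rise of the size fitted for APOBEC3F or APOBEC3G. That difference between members was also seen as a ratio of reads within a library, which no scaling between libraries can move. There were 0.488, 0.506 and 0.506 APOBEC3G reads for each APOBEC3C read in the controls and 0.634, 0.682 and 0.767 in the knockouts (exact permutation test, two-sided p = 0.1, the smallest that 3 against 3 libraries allow).

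APOBEC3D, a 2-domain member, spans 39021113 to 39033276 between APOBEC3C and APOBEC3F. It had 7.54, 7.22 and 6.94 CPM in the controls and 6.96, 6.83 and 6.68 CPM in the knockouts. The lowest control and the highest knockout library were almost level, so the groups overlapped. The log2 fold change of -0.08 (SE 0.09, 95% interval -0.30 to 0.13) did not pass (edgeR adjusted p = 0.61). APOBEC3D and APOBEC3F, which share their second zinc site, differed in balance between the groups. There were 1.11, 1.07 and 1.18 APOBEC3F reads for each APOBEC3D read in the controls and 1.69, 1.59 and 1.71 in the knockouts (exact permutation test, two-sided p = 0.1, the smallest possible). The ratio of APOBEC3F to APOBEC3G reads overlapped between the groups, at 0.425 to 0.471 in the controls and 0.440 to 0.489 in the knockouts.

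APOBEC3B, the mainly nuclear member tied to mutation in tumours, spans 38982347 to 38992804. Its levels were 11.1, 11.99 and 11.9 CPM in the controls and 11.1, 10.9 and 9.62 CPM in the knockouts. All knockout values were below all control values, but control replicate 1 and knockout replicate 1 differed by less than 0.1 CPM, and 21.3% of all tested genes were separated in this direction. The log2 fold change of -0.15 (SE 0.09, 95% interval -0.36 to 0.07) did not pass (edgeR adjusted p = 0.36). Its antisense partner APOBEC3B-AS1 had 0 reads in all 6 libraries, and the row for the APOBEC3A_B fusion gene held 1 read in all.

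APOBEC3A, a single-domain enzyme best known from myeloid cells, had 0 reads in the 3 control libraries and 2 reads in the knockouts, both in replicate 1. Both groups lay within the limit that a count of 0 allows, and no fold change is given. APOBEC3H, the single-domain member at the telomeric end of the cluster, had 4, 8 and 2 reads in the controls and 4, 14 and 14 in the knockouts. The groups overlapped, with 14 reads against 32 in all, and a fit with no filter on low counts gave an unadjusted p of 0.071 and an edgeR adjusted p of 0.28. A difference of APOBEC3H was thus not detected.

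Counts per gene grow with transcript length, so levels were compared between members as CPM per kilobase of the longest coding transcript in GENCODE 29. In the controls APOBEC3C was the highest at 12.8 ± 0.0751, followed by APOBEC3G at 9.84 ± 0.153 and APOBEC3B at 6.32 ± 0.261 CPM per kilobase. APOBEC3F (3.003 ± 0.118) and APOBEC3D (2.86 ± 0.119) came next, with overlapping ranges. APOBEC3H followed at 0.146 ± 0.105, and APOBEC3A was at 0. In the knockouts APOBEC3G (13.3 ± 0.178) and APOBEC3C (12.6 ± 1.07) overlapped at the top. APOBEC3B followed at 5.71 ± 0.433, and APOBEC3F (4.21 ± 0.174) was now above APOBEC3D (2.70 ± 0.0562) in all libraries. All of these are levels with n = 3, and they depend on the transcript chosen.

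The makeup of the family shifted with these changes. APOBEC3G gave 21.8%, 22.4% and 22.4% of the family's reads in the controls and 26.2%, 27.4% and 29.02% in the knockouts. In control replicate 1 the exact binomial 95% interval was 20.3% to 23.4%, and in knockout replicate 1 it was 24.6% to 27.8%. APOBEC3F went from 9.96% ± 0.404 to 12.8% ± 0.684 (SD, n = 3). Shares of APOBEC3B (14.3% to 11.8%), APOBEC3C (44.4% to 39.8%) and APOBEC3D (8.90% to 7.67%) were lower, each with groups that did not overlap. Shares of 1 total cannot all move independently, so these decreases include the effect of the other members' rise. The summed level of the 7 members was 81.2 to 81.4 CPM in the controls and 92.1, 90.0 and 84.8 CPM in the knockouts, lowest in replicate 3. As 1 row the family had a log2 fold change of 0.13 (SE 0.05) and missed the threshold (edgeR adjusted p = 0.16).

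**Figure D2:**
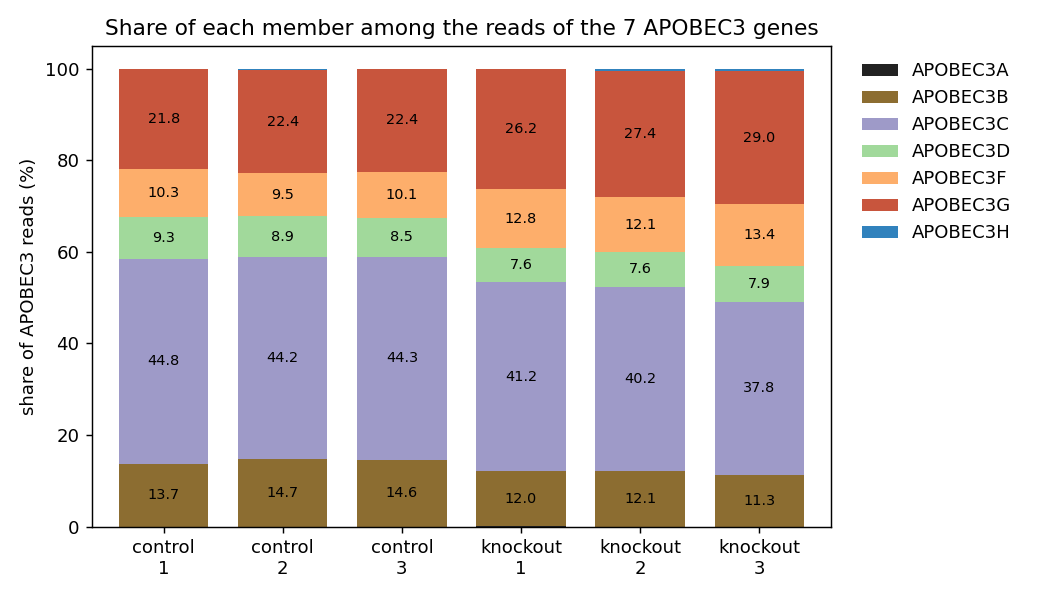
Share of each member (percent, stacked to 100) among the reads of the 7 APOBEC3 genes in each of the 6 libraries. APOBEC3G takes 21.8% to 22.4% in the controls and 26.2% to 29.02% in the knockouts, while APOBEC3C takes the largest share in every library.

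APOBEC3F and APOBEC3G lie next to each other, 23.1 kb apart, at the telomeric side of the tested members, in a cluster that GENCODE 29 places at 38952741 to 39104067 on chromosome 22 (hg38). The nearest tested genes outside were CBX6 and CBX7, both encoding chromobox proteins of the Polycomb system. CBX6, on the centromeric side, stood at 60.6 ± 3.63 and 54.0 ± 8.72 CPM (log2 -0.17, edgeR adjusted p = 0.42). CBX7, 16.1 kb beyond APOBEC3H, stood at 3.32 ± 0.482 and 4.18 ± 0.772 CPM (log2 0.33, edgeR adjusted p = 0.27). Neither passed the test. Of 28 tested genes with a start within 1 Mb of the cluster, members left out, 1 rose and 2 fell, shares of 3.57% and 7.14% beside 5.71% and 9.33% of all tested genes. Their median log2 fold change was 0.01. The small nucleolar RNA SNORD83B, which lies within RPL3 and may share reads with it, rose (log2 0.80, edgeR adjusted p = 0.029). CBY1 (log2 -0.48, edgeR adjusted p = 0.021) and GRAP2, which encodes a signalling adaptor of T cells (0.929 ± 0.175 to 0.252 ± 0.0804 CPM, log2 -1.87, edgeR adjusted p = 0.0073), fell. On chromosome 22 as a whole, 11 of 329 other tested genes rose and 27 fell, with a median of -0.05.

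**Figure D3:**
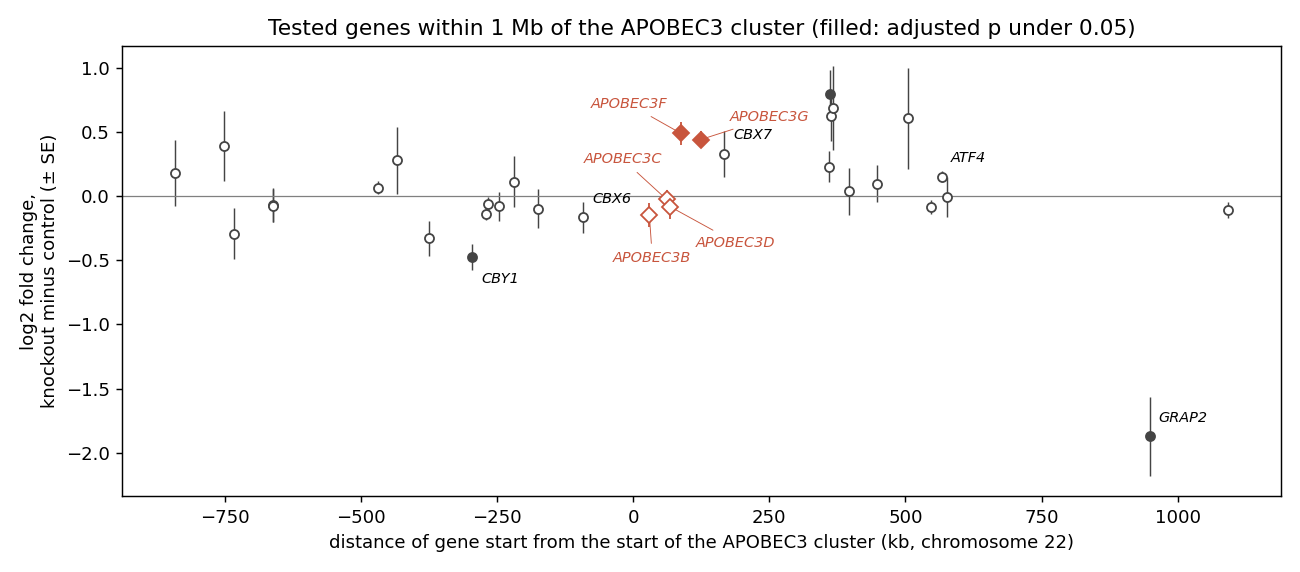
Log2 fold change, knockout minus control (y axis, ± SE from edgeR), against the distance of each gene's start from the start of the APOBEC3 cluster (x axis, kb); diamonds are the 5 tested members, circles the 28 other tested genes, and filled symbols passed an adjusted p of 0.05. APOBEC3F and APOBEC3G are filled, at 0.49 and 0.44, between unfilled neighbours.

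The tested genes most like each riser were found as those with the smallest root mean square difference of log2 CPM over the 6 libraries, each gene centred on its control mean. For APOBEC3G these were ERCC6, a chromatin remodeller of transcription-coupled repair (difference 0.01), C12orf49 (0.03) and ABCA1, a cholesterol exporter (0.03). For APOBEC3F they were CLEC17A, a lectin of B cells (0.03), PLEKHG1 (0.03) and MPP1 (0.04). APOBEC3G was at rank 31 in likeness to APOBEC3F, and APOBEC3F at rank 73 in likeness to APOBEC3G, with a difference of 0.07. APOBEC3B, APOBEC3C and APOBEC3D were at ranks 5686 to 8436 in likeness to either. With so few libraries the measure mostly reads the group difference, and it is a description only.

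Of the related deaminases outside the cluster, APOBEC1, APOBEC2 and APOBEC4 had 0 reads in all libraries. Uracil left by APOBEC3 enzymes is removed by the glycosylase UNG, which starts base excision repair. UNG stood at 77.3 ± 4.88 and 101 ± 17.3 CPM (log2 0.38, SE 0.12) and missed the threshold (edgeR adjusted p = 0.087). Of 19 tested genes of uracil and base excision repair, 2 rose and 2 fell, with a median of 0.09, where 5.71% of all tested genes rose and 9.33% fell. Without knockout replicate 3, 11 rose and 3 fell, beside 21.6% and 22.8% of all tested genes. NEIL3, a glycosylase for oxidised bases, fell from 37.8 ± 2.13 to 21.9 ± 2.65 CPM (log2 -0.79, edgeR adjusted p = 0.0026) and its relative NEIL2 fell from 16.9 ± 0.328 to 12.3 ± 1.87 CPM (edgeR adjusted p = 0.042). The third relative, NEIL1, went the other way (log2 1.01, edgeR adjusted p = 0.0073).

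Of 14 tested genes of mismatch repair and translesion synthesis 2 rose and 0 fell in edgeR, beside 5.71% and 9.33% of all tested genes. Without knockout replicate 3 these were 4 and 1 of 14, beside 21.6% and 22.8% of all tested genes. At an unadjusted p under 0.05 they were 5 and 1, beside 12.7% and 17% of all tested genes. With DESeq2 they were 2 and 0, beside 5.24% and 7.62%. Both risers belong to translesion synthesis, the copying of damaged DNA. POLH, polymerase eta, was higher by a log2 of 0.51 (edgeR adjusted p = 0.0040). REV3L, the catalytic subunit of polymerase zeta, went from 88.4 ± 3.57 to 113 ± 13.5 CPM (log2 0.35, edgeR adjusted p = 0.041). POLI, another translesion polymerase, was named because it was the lowest of the list. It missed the threshold in the other direction (log2 -0.35, edgeR adjusted p = 0.053).

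None of the 19 listed regulators of APOBEC3B transcription, from MYBL2 and the E2F and LIN proteins to the NF-kB subunits, passed in edgeR. At an unadjusted p under 0.05, 4 were higher and 0 lower, beside 12.7% and 17% of all tested genes. DESeq2 called 1 higher and 0 lower, beside 5.24% and 7.62%. Without knockout replicate 3 edgeR called 9 higher and 0 lower, in a fit that called 21.6% and 22.8% of all tested genes higher and lower. The median of this list was 0.10. Among 8 host subunits of the ubiquitin ligase that HIV-1 Vif uses to degrade APOBEC3 proteins, RNF7, a RING subunit, fell from 55.7 ± 2.05 to 47.4 ± 1.06 CPM (log2 -0.23, edgeR adjusted p = 0.035), and 0 rose in edgeR, at an unadjusted p under 0.05 and with DESeq2, which called 0 lower as well. With all libraries edgeR called 5.71% of all tested genes higher and 9.33% lower. The unadjusted p called 12.7% higher and 17% lower, and DESeq2 5.24% and 7.62%. Without knockout replicate 3, 1 of the 8 rose and 2 fell, beside 21.6% and 22.8% of all tested genes.

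Other factors that restrict retroviruses and retroelements moved both ways. Of 24 tested, 3 rose and 1 fell, with a median of -0.05, beside 5.71% and 9.33% of all tested genes. Without knockout replicate 3, 8 rose and 8 fell, beside 21.6% and 22.8% of all tested genes. TRIM22, an interferon-induced restriction factor, rose from 143 ± 0.996 to 188 ± 15.5 CPM (log2 0.40, edgeR adjusted p = 0.0086). SAMHD1, which depletes the nucleotides that reverse transcription needs, rose from 44.6 ± 2.55 to 57.1 ± 5.67 CPM (log2 0.36, edgeR adjusted p = 0.033). SETDB1, a methyltransferase that silences endogenous retroviruses, rose from 150 ± 1.23 to 180 ± 2.73 CPM (log2 0.26, edgeR adjusted p = 0.010). MX2, which blocks HIV-1 entry into the nucleus and was named because it was the single member that fell, had a log2 fold change of -0.26 (edgeR adjusted p = 0.017). Its gene lies on chromosome 21, as do IFNAR1 and IFNAR2, which also fell. The part of chromosome 21 in these falls was not tested.

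Several APOBEC3 genes respond to interferon in other cells. Of 29 tested type I interferon response genes 5 rose (17.2%, beside 5.71% of all tested genes) and 2 fell (6.90%, beside 9.33%), with a median of 0.03. Without knockout replicate 3, 10 rose and 6 fell of 30 tested, beside 21.6% and 22.8% of all tested genes. The sensor IFIH1 was highest among the risers (log2 0.87, edgeR adjusted p = 2.1e-04), followed by EPSTI1 (log2 0.69, edgeR adjusted p = 0.0098). IFI44 had the largest fall (log2 -0.64, edgeR adjusted p = 0.0073). Of 14 interferon receptor and signalling genes 2 rose and 3 fell, beside 5.71% and 9.33% of all tested genes, and 7 and 4 did without knockout replicate 3, beside 21.6% and 22.8%. Both chains of the type I interferon receptor, encoded on chromosome 21, fell: IFNAR1 from 127 ± 3.69 to 80.2 ± 3.24 CPM (log2 -0.66, edgeR adjusted p = 4.9e-04) and IFNAR2 from 80.7 ± 2.02 to 56.1 ± 0.958 CPM (log2 -0.52, edgeR adjusted p = 9.5e-04). IRF5, a transcription factor of the interferon response, fell from 20.9 ± 0.344 to 14.6 ± 2.46 CPM (log2 -0.52, edgeR adjusted p = 0.030). The 2 that rose, named because the list would otherwise show falls only, were IRF8 (log2 0.48, edgeR adjusted p = 0.0019) and IRF2 (log2 0.28, edgeR adjusted p = 0.012).

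**Figure D4:**
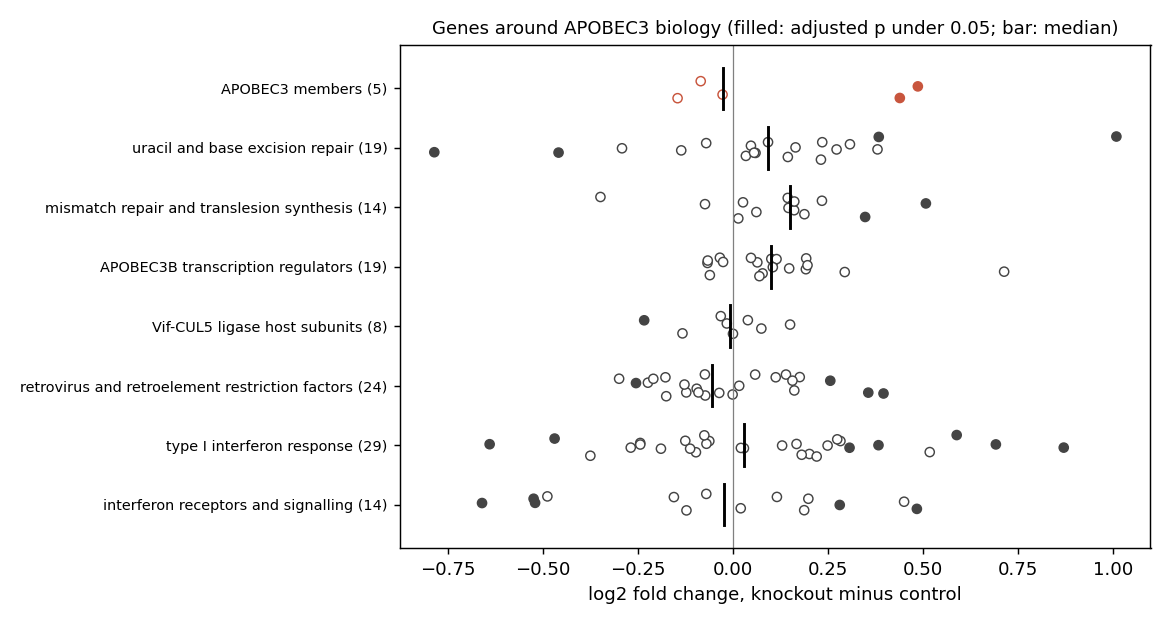
Log2 fold change, knockout minus control (x axis), of the tested members of each gene list (number in brackets); filled points passed an edgeR adjusted p of 0.05 and vertical bars are medians. The 2 filled APOBEC3 points are APOBEC3F and APOBEC3G, and the interferon, base excision repair and restriction lists hold filled points on both sides of 0. The filled points of mismatch repair and translesion synthesis lie above 0.

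APOBEC3G is abundant in T and NK cells and APOBEC3A in myeloid cells, so markers of these cells were read beside the family. The summed level of 10 T and NK cell markers was 20.7 to 22.7 CPM in the controls and 6.68 to 9.87 CPM in the knockouts, with CD3D and KLRD1 at 0 in all libraries. In the controls most of it was PRF1 (14.1 ± 0.841 to 3.42 ± 1.19 CPM, log2 -2.04, edgeR adjusted p = 0.0026). The summed level of 10 myeloid markers was 20.9 to 26.3 CPM in the controls and 9.53 to 14.4 CPM in the knockouts, with S100A8 and S100A9 at 0; 4 of 4 tested members fell, led by ITGAM (log2 -1.61, edgeR adjusted p = 7.2e-04), where 9.33% of all tested genes fell. Without knockout replicate 3, 4 of 5 fell, beside 22.8%. Myeloid markers with too few reads for the main fit were not lower by reads. CD14 had 31 reads in the controls and 38 in the knockouts, CSF1R 3 and 6, FCN1 0 and 2, and FCGR3A 0 and 1. Both marker sums were lower in the knockout libraries. All libraries are labelled as the OCI-LY8 lymphoma line, so the sums are levels of transcripts and do not count T, NK or myeloid cells. In bulk RNA, fewer cells of the line with a transcript and less of it per cell cannot be told apart. Of 7 plasma cell markers 3 fell and 0 rose in edgeR, beside 9.33% lower and 5.71% higher of all tested genes. At an unadjusted p under 0.05 and with DESeq2 1 rose, where 12.7% and 5.24% of all genes were higher. Those that fell were JCHAIN (log2 -6.46, edgeR adjusted p = 6.3e-08), PRDM1 (log2 -1.57, edgeR adjusted p = 3.0e-04) and TNFRSF17 (log2 -1.19, edgeR adjusted p = 6.1e-04). In the fit without knockout replicate 3, 1 of the 7 rose and 3 fell, beside 21.6% and 22.8% of all tested genes. The part of the T and NK, myeloid and plasma cell markers in the APOBEC3 result was not tested. Of the 8 B-cell markers 2 rose and 2 fell in edgeR, beside 5.71% and 9.33% of all tested genes. Among them were PAX5 (log2 0.66, edgeR adjusted p = 0.0040), CD22 (log2 0.59, edgeR adjusted p = 0.0026) and MS4A1 (log2 -0.77, edgeR adjusted p = 0.0013). In the fit without knockout replicate 3, 5 of the 8 B-cell markers rose and 2 fell, beside 21.6% and 22.8% of all tested genes.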

How the data were processed

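The authors deposited raw read counts per gene symbol and, in a second table, log2 values. The submitters' processing notes name the hg38 build and the tools HISAT2, featureCounts, Trimmomatic, DESeq2 and CASAVA 1.8, without their roles; the annotation, strand setting and treatment of multiple alignments are not stated there. Groups came from sample titles. The counts were fitted with edgeR 4.0.16 in R 4.3.3 (filterByExpr, TMM, robust quasi-likelihood, Benjamini-Hochberg over 12907 genes, threshold 0.05); CPM use TMM-scaled sizes and SE is the absolute log2 fold change over the square root of F. The fit was tested on simulated data. DESeq2 1.42.0 and limma 3.58.1 served as alternatives; limma on the deposited log2 values left out missing entries. Positions, transcripts and GC content (known for 96.8% of tested genes) came from GENCODE 29, with 23899 symbols matched directly and 788 through another symbol. Members and lists were chosen with earlier results of these data known. Named genes are the members, SETD1B, UNG, up to 3 changed genes per list with a mean of at least 1 CPM by absolute fold change, the nearest neighbours of the cluster with up to 4 changed ones within 1 Mb, and the 3 genes most like each riser. A named gene that falls under this rule is not reported here. List counts without knockout replicate 3 were added after seeing the data. No replicates agreed within sampling noise. Chi-square per degree of freedom was 1.83 to 3.78 between control libraries and 5.41 between knockout replicates 1 and 2. Knockout replicate 3 gave 44.99 and 57.13 against knockout replicates 1 and 2. Pairs of a control and a knockout library gave 33.08 to 59.04.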

Additional observations from a re-analysis of the deposited data

How the results depend on the processing

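APOBEC3G kept its call at log2 values of 0.42 to 0.47 in 16 of 17 alternatives (RLE or library-size scaling, other filters, DESeq2, limma, GC correction, the block, each library left out, adjusted p under 0.01). The remaining one, glmTreat against 1.5-fold, ended it (log2 0.44, adjusted p = 1). The fitted changes of APOBEC3G (1.36-fold) and APOBEC3F (1.40-fold) lie below 1.5-fold, so glmTreat could not call either. APOBEC3F kept its call in 13 of 17: it was lost under glmTreat and at adjusted p under 0.01 (log2 0.49 in both), leaving 0 and 1 members called, and without control replicate 2 or 3, with a range of 0.46 to 0.52 and 1 to 2 members called over the libraries left out. APOBEC3B and APOBEC3D stayed downward and uncalled in all 17. APOBEC3C, uncalled throughout, reversed to 0.039 without knockout replicate 3 and ranged from -0.063 to 0.039 over the libraries left out. The count of changed genes was 4838 after GC correction, 828 at adjusted p under 0.01, 263 with glmTreat and 779 to 5795 with a library left out (5795 without knockout replicate 3, 779 without control replicate 2, 826 without control replicate 3, 841 without control replicate 1, 1102 without knockout replicate 1). The cause was not tested. Same-numbered libraries did not deviate together (correlations -0.10 to 0.08); with the replicate number as a block 1326 genes passed, APOBEC3F at an edgeR adjusted p of 0.041 and APOBEC3G at 0.024. APOBEC3A and APOBEC3H had too few reads to pass the filter on low counts in the main fit. With no filter 7 members were tested, and the 2 called were still APOBEC3F and APOBEC3G.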
